A study of Vitis vinifera with 2 samples.

Results

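A given set of 3 9-cis-epoxycarotenoid dioxygenase (NCED) genes of grapevine was examined for peaks of the transcription factor VlbZIP30. NCED enzymes cleave 9-cis-epoxycarotenoids in plastids to xanthoxin, which a short-chain dehydrogenase and an aldehyde oxidase then turn into abscisic acid. This cleavage is regarded as the rate-limiting step of abscisic acid synthesis, and NCED transcripts rise in leaves of many plants when water is short. Abscisic acid in turn closes stomata and acts on transcription partly through basic leucine zipper (bZIP) proteins, the family to which VlbZIP30 belongs.

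The members were 3 genes given by identifier, VIT_19s0093g00550, VIT_10s0003g03750 and VIT_05s0051g00670, and every peak whose nearest promoter or bracketed annotation named one of them. This rule found 9 peaks of the 49173 in the deposited list, and 3 genes of the 20152 that the list names as nearest to a peak. Each gene had at least 1 peak. The assignment of these identifiers to the NCED family came with the member list, since the peak table holds no gene functions. They are therefore called here by chromosome, and NCED genes outside this list of 3 were not examined.

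The study profiled leaves of transgenic Vitis vinifera by chromatin immunoprecipitation and sequencing (ChIP-seq). Its 2 libraries were 1 anti-FLAG precipitation and 1 control, which the title calls input and the antibody field IgG. Plants of both libraries were 4 months old, carried VlbZIP30 fused to a FLAG tag in 3 copies, and had gone 20 days without watering before the uppermost leaves were collected. The fusion was driven by the CaMV 35S promoter, which is active in most plant tissues, so protein levels and cell types need not match those of the native gene. Neither untagged nor watered plants were among the samples analysed, so no change with drought can be read from the list, and binding of the fusion and precipitation without the tag cannot be told apart. With 1 library per group no value below has a replicate error, no test between groups was possible, and each rank describes this list alone. Library depth is unknown.

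All 3 NCED genes had a high-scoring peak lying over the transcription start site (TSS). The TSS and the strand followed from the signed distances of each gene's own peaks. A peak over the TSS was present at 3 of 3 NCED genes, against 61.6% of the listed genes. Among listed genes with 2 or more peaks, as all 3 members have, the share was 68.9%. Such cover is thus common in the list and does not by itself set the 3 genes apart. This comparison was added after the data were seen. The authors' score has no named scale; its lowest value in the list, 1.30142, lay just above 1.30103, which is -log10 of 0.05, so a higher score need not mean more signal. It was 170.1 for this peak at the chromosome 19 gene, 73.4 at the chromosome 10 gene and 60.1 at the chromosome 5 gene. The median score over all 12410 peaks that lie over the TSS of their nearest gene was 16.4, and the 3 NCED peaks ranked 3, 299 and 652 among them. The chromosome 19 score was thus the highest of the 3 and the chromosome 5 score the lowest.

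These TSS peaks were also long. They measured 2980 bp on chromosome 19, 11076 bp on chromosome 10 and 2897 bp on chromosome 5, against a median of 824 bp for peaks over a TSS. A TSS peak of 2.5 kb or more was present at 3 of 3 NCED genes and at 5.91% of the listed genes. This length was set after the values were seen and below the shortest of the 3, so the 3 of 3 followed from the choice. Length and score moved together in this list, as the comparison within similar lengths below shows, and the part of length in the ranks was not tested further.

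The 3 genes differed in how the peak sat on the gene. On chromosome 19 it ran from 1719 bp upstream to 1260 bp downstream of the TSS, so 57.7% of it lay upstream. On chromosome 10 it ran from 4761 bp upstream to 6314 bp downstream, with 43.0% upstream. On chromosome 5 only 463 bp, or 16.0% of the peak, lay upstream, and the peak reached 2433 bp into the gene side. Because the annotation class follows the peak centre, only the chromosome 19 peak was classed as promoter, and the other two were classed as exon. Thus 1 of 3 NCED genes was named in a promoter annotation, against 58.3% of the listed genes. When any peak that touched the window from 1000 bp upstream to 100 bp downstream was counted, 3 of 3 NCED genes had one, against 77.6% of the listed genes.

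**Figure D1:**
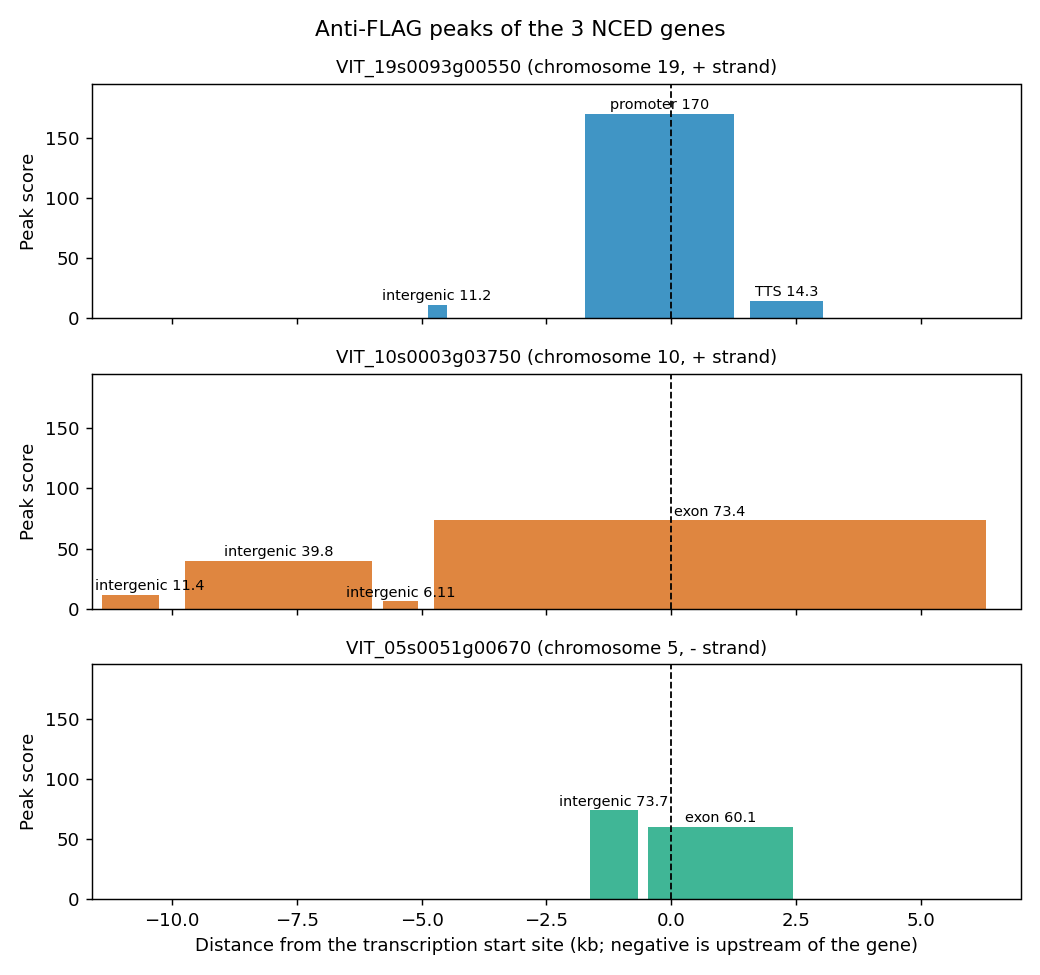
Peaks of the 3 NCED genes drawn to scale along the gene's own direction; the horizontal axis is the distance from the TSS in kb (dashed line at the TSS) and the vertical axis the peak score, with each block as wide as the peak and labelled with its class and score. A block gives 1 score for the whole peak, not a coverage profile. In each panel 1 block covers the TSS, with scores of 170.1 on chromosome 19, 73.4 on chromosome 10 and 60.1 on chromosome 5, and 0 peaks of other genes fall in the plotted range.

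VIT_19s0093g00550, on the plus strand of chromosome 19 with its TSS at 17645348, had the highest-scoring peak of the 3 members. Its 3 peaks scored 11.2, 170.1 and 14.3 in order along the gene. The promoter peak (17643629 to 17646608) was centred 230 bp upstream of the TSS. It ranked 4 among all peaks of the list, 3 among the 12387 promoter peaks and 2 among the 2058 peaks of chromosome 19. Among the 2895 promoter peaks centred 200 to 500 bp upstream of their own gene it ranked 2, where the median score was 14.8. Of all peaks, 38.6% scored as high as the upstream peak and 32.3% as high as the downstream one, so the high score belonged to 1 of the gene's 3 peaks.

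The peak classed at the transcription termination site (TTS) of the chromosome 19 gene (17646938 to 17648393) was 1456 bp long and began 329 bp after the end of the promoter peak. With a score of 14.3 it ranked 868 of the 3614 gene-end peaks that lie nearest to their own gene's TSS, whose median was 5.98. From 1719 bp upstream to 3045 bp downstream of the TSS, this gap of 329 bp was the only stretch without a peak. The third peak (17640472 to 17640851) was intergenic, 380 bp long and centred 4687 bp upstream. Its score of 11.2 lay close to the median of 10.4 for the 4913 intergenic peaks 3 to 10 kb upstream of a gene.

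VIT_10s0003g03750, on the plus strand of chromosome 10 with its TSS at 6374432, had the greatest summed peak length of the members. Its TSS peak (6369671 to 6380746) was the longest of all 7118 exon peaks, the longest on chromosome 10 and the sixth longest of the whole list, with a rank of 6. The list annotates it to exon 1 of 1, so the gene model has no intron, as is common for NCED genes in plants. Its centre lay 776 bp downstream of the TSS. Of the 12 peaks in the list that measured 10 kb or more, 11 lay over a TSS, against 12410 of all 49173 peaks. A longer peak reaches farther from its centre, so it covers a TSS more readily by construction. Scores of the 12 ran from 13.1 to 93.9 with a median of 56.6. The NCED peak, at 73.4, ranked 4 among these 12.

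Upstream of this peak lay 3 intergenic peaks nearest to the same gene. They were centred 10827, 7861 and 5419 bp upstream, scored 11.4, 39.8 and 6.11, and measured 1143, 3750 and 697 bp. The middle one (6364697 to 6368446) had the highest score of the 3, with a rank of 532 of 4913 among intergenic peaks 3 to 10 kb upstream. The lowest-scoring (6368665 to 6369361) was the 1 member peak below the list's median score of 7.56, and 55 peaks of the list, itself included, had this score. Scores did not decline steadily with distance from the TSS, since the peak at 7861 bp exceeded the one at 5419 bp.

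The gaps between the 4 peaks of the chromosome 10 gene were 520, 218 and 309 bp. Of the gaps between neighbouring peaks of the list, whether of the same gene or of different genes, 22.7%, 2.47% and 10.4% were as short or shorter. Whether peaks this close are separate sites was not tested. The peaks lay in a run of 17713 bp (6363034 to 6380746), of which 94.1% was covered. Their summed length of 16666 bp ranked 6 among all listed genes and 2 among the 1941 genes with exactly 4 peaks.

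VIT_05s0051g00670, on the minus strand of chromosome 5 with its TSS at 11591102, had 2 peaks, both of high score. The exon peak (11588669 to 11591565) scored 60.1 and covered the TSS of a gene that the list also gives as intronless. The other (11591775 to 11592727), classed as intergenic, scored 73.7 and was centred 1149 bp upstream, 149 bp beyond the limit of the promoter class. The gap between them was 209 bp, and 1.496% of the gaps in the list, within and between genes, were as short or shorter. The gap thus lay at the short end of those in the list, and whether peaks this close are separate sites was not tested. Here the highest-scoring peak was therefore the upstream one, and it stopped 673 bp short of the TSS.

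Among the 5624 intergenic peaks 1 to 3 kb upstream of a gene, the upstream peak of VIT_05s0051g00670 ranked 101, with a median of 11.1 for that set. Its length of 953 bp was moderate, and 21.7% of that set were as long or longer. Genes with at least 2 peaks scoring as high as the lower of this pair were few. They numbered 79, or 0.392% of the listed genes, while only 1211 listed genes had even 1 peak scoring that high. The limit was taken from the member itself after its value was seen. Only the 12847 listed genes with 2 or more peaks could be counted among the 79. The pair lies 209 bp apart, so its place in this count depends on its being listed as 2 peaks and not 1.

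The 2 exon peaks could be set beside those of other genes with a single annotated exon. Among 1029 such peaks the chromosome 10 peak ranked 23 by score and 1 by length, and the chromosome 5 peak ranked 39 by score and 69 by length. The medians of that set were 7.02 for the score and 682 bp for the length. Of the 1029 peaks, 46.3% lay over the TSS, as did both NCED peaks.

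**Figure D2:**
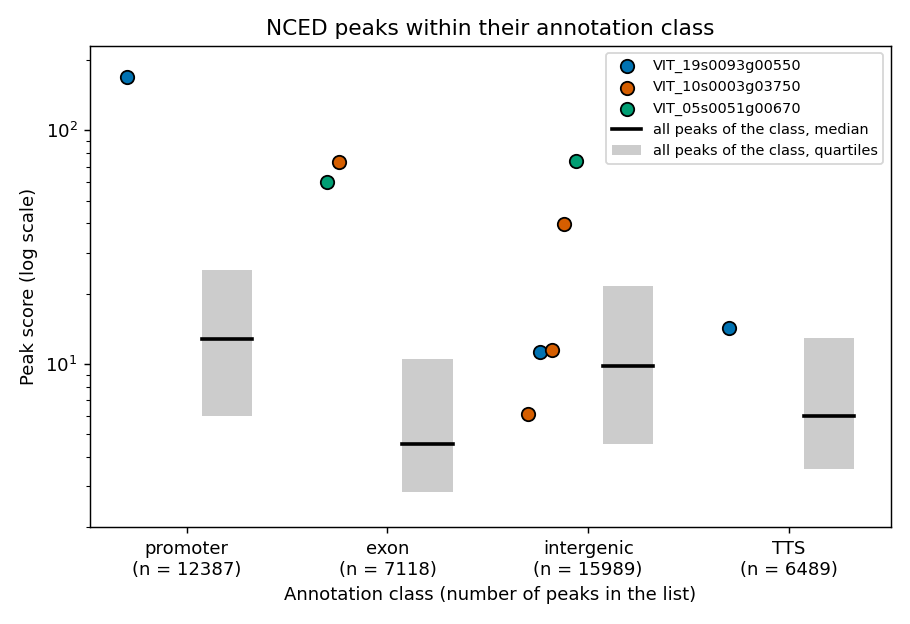
Score of each NCED peak (points, coloured by gene, log axis) beside the quartile range (grey bar) and median (black line) of all peaks of the same annotation class. The promoter peak and both exon peaks lie above the upper quartile of their class, as do the gene-end peak scoring 14.3 and the intergenic peaks scoring 73.7 and 39.8, while the intergenic peak scoring 6.11 lies below its class median of 9.80.

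Most member peaks scored above the middle of the list. At or above the list's upper quartile of 18.5 lay 5 of 9 member peaks, against 25.5% of all peaks. The 5 scored 170.1, 73.7, 73.4, 60.1 and 39.8, and each of the 3 genes had at least 1 of them. At or above the median of the list lay 8 of 9, against 50.6% of all peaks. The median member score was 39.8 against 7.56 for the list, and the median member length was 1456 bp against 517 bp. Peaks of 1 gene lie next to each other and are not independent, so these shares describe 3 loci.

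Among peaks of similar length the TSS peaks of the chromosome 10 and chromosome 5 genes stood lower. The list was divided by length into 10 groups of nearly equal size, and the group of the longest peaks, from 1627 to 17092 bp, held 4916 peaks with a median score of 30.3, against 7.56 for all peaks. In it the chromosome 19 promoter peak ranked 2, the chromosome 10 exon peak 286 and the chromosome 5 exon peak 572, with 0.0407%, 5.94% and 11.6% of the group scoring as high or higher. The upstream peak of the chromosome 5 gene, in the group from 798 to 1063 bp, ranked 80 of 4915. By contrast the chromosome 10 peak centred 7861 bp upstream ranked 1550 in the group of the longest peaks, with 32.1% scoring as high or higher. That group spans a wide range of lengths. Among the 1202 peaks of 3 kb or more, whose median score was 38.2, the chromosome 10 exon peak ranked 113, with 9.57% as high or higher. In the same set the peak centred 7861 bp upstream ranked 558, with 47.3% scoring as high or higher. The member peaks below the median of their length group were 3, namely the gene-end peak of the chromosome 19 gene (14.3 against 19.1) and the chromosome 10 peaks centred 10827 bp (11.4 against 19.1) and 5419 bp upstream (6.11 against 11.7). At or above that median lay 6 of 9 member peaks, against 50.7% of all peaks.

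**Figure D3:**
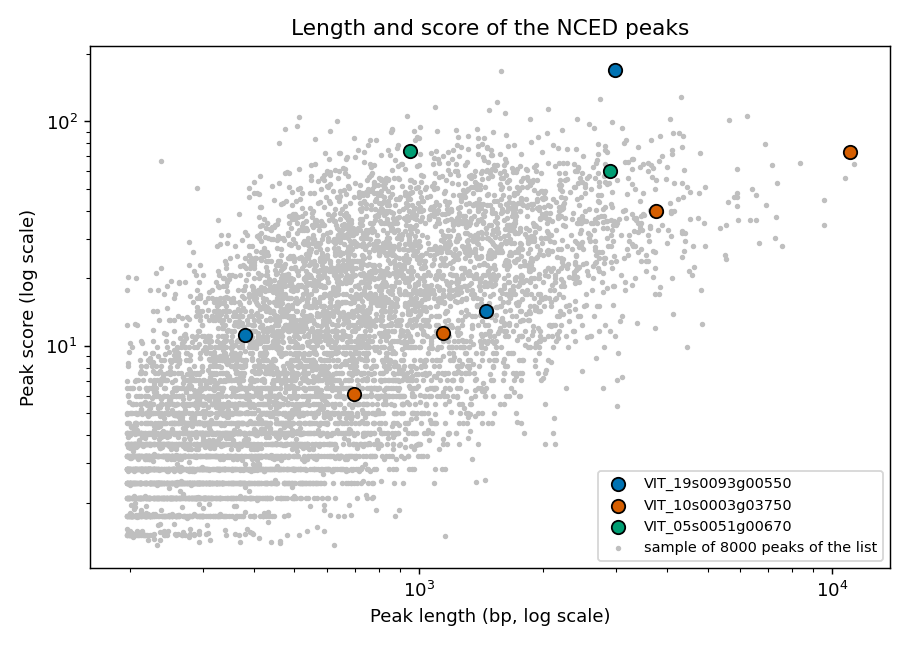
Peak length in bp against peak score, both on log axes, for the 9 NCED peaks (large points, coloured by gene) and a random sample of 8000 peaks of the list (grey). The chromosome 19 promoter peak of 2980 bp lies near the upper edge of the scores at its length, and the chromosome 10 peak of 11076 bp lies near the right edge of the plot.

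Gene by gene, the 3 members ranked high by score and had 2 to 4 peaks per gene. The highest score of a gene ranked 4 of 20152 for the chromosome 19 gene, 563 for the chromosome 5 gene and 568 for the chromosome 10 gene, with 0.0198%, 2.79% and 2.89% of genes as high or higher. For 3 of 3 NCED genes the highest score lay in the upper quartile of peaks, against 45.6% of the listed genes. For 1 of 3, the chromosome 19 gene, it lay in the top 1% of peaks, against 2.35% of the listed genes. The other two fell just short of that limit, which was a score of 76.8.

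The numbers of peaks were 3, 4 and 2 for the chromosome 19, 10 and 5 genes. Of the listed genes 37.3% had 3 or more peaks, 20.6% had 4 or more and 63.8% had 2 or more. Ranked only among genes with the same number of peaks, the highest score ranked 2 of 3362 for the chromosome 19 gene, 79 of 1941 for the chromosome 10 gene and 122 of 5340 for the chromosome 5 gene. By summed score the chromosome 19 gene ranked 124, with a sum of 196, of which 170.1 was its promoter peak. The chromosome 5 gene ranked 510 with a sum of 134, and the chromosome 10 gene ranked 544 with a sum of 131.

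**Figure D4:**
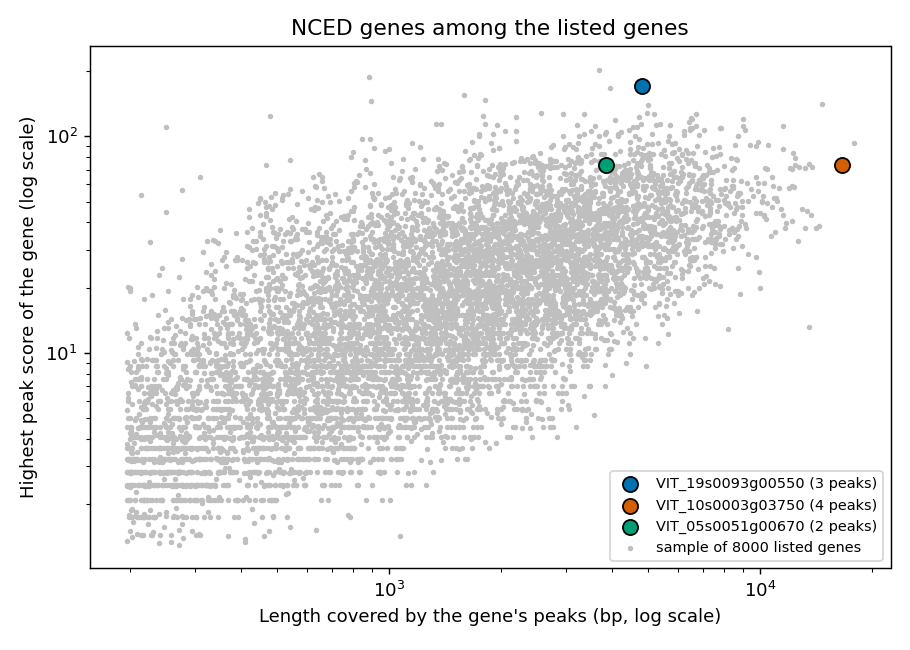
Length covered by a gene's peaks in bp against the gene's highest peak score, both on log axes, for the 3 NCED genes (large points) and a random sample of 8000 listed genes (grey). The chromosome 19 gene stands out by its score of 170.1, the chromosome 10 gene by its covered length of 16666 bp, and the chromosome 5 gene, with 3850 bp and a score of 73.7, lies in the upper part of the cloud.

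Within 10 kb of their start sites the NCED genes had fewer peak centres than the median gene. At 5 and 20 kb the counts lay nearer to the median for some of them. Within 10 kb on either side of the TSS lay 3 peak centres for the chromosome 19 gene, 3 for the chromosome 10 gene and 2 for the chromosome 5 gene. Every one of these centres belonged to the NCED gene itself. The median over the 12847 genes whose TSS could be recovered was 6, and 87.9%, 87.9% and 97.2% of them had as many or more. Within 5 kb the counts were 3, 1 and 2 against a median of 3, and 68.1%, 97.9% and 90.8% of the genes had as many or more. Within 20 kb the counts were 4, 6 and 8 against a median of 10, with shares of 90.8%, 79.9% and 66.7%. Recovery needed 2 or more peaks per gene, which leaves genes with a single peak out of that comparison. A long peak adds only 1 centre, so these counts do not measure the length covered by peaks. The chromosome 10 TSS peak, from 4761 bp upstream to 6314 bp downstream, counted as 1.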

How the data were processed

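The authors deposited 1 peak list that, by its name, sets FLAG against input. Per the file headers, it gives positions, scores, annotation classes, the gene with the nearest TSS and the signed distance in bp from peak centre to that TSS. No header names the scale of the deposited score, which served only to describe and rank peaks. BWA, MACS2 and HOMER were used per the submitters' processing notes, with no role given. Their versions and settings, the genome build, any pooling and the depth were not stated in those sources. Coordinates are printed as in the list. Peak numbers ran through the list with 0 missing.

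Member peaks were those whose nearest promoter or bracketed annotation named an NCED gene. A rank is 1 plus the number of peaks or genes with higher values, so tied values share a rank. A peak lay over a TSS if its distance was no larger than the reach of the peak from its centre to its edge, which needs no strand. TSS and strand were solved for the 12847 genes with 2 or more peaks. On a simulated list built with the same rule for the peak centre, 1501 of 1501 such genes got back their TSS, and 1 of 4992 peaks was misjudged at its edge. This checks the calculation alone, since the simulated distances followed the rule by construction. In the deposited list the peaks of each of the 12847 genes gave 1 and the same TSS, with 0 exceptions. The genes named are the 3 members and the nearest listed gene on each side. The members, and the rules on TSS cover, on 2.5 kb and on pairs of high peaks, were chosen with earlier results of these data known. Alternatives covered the linking of peaks to genes, score limits, the pool ranked against, distances and windows. Of 3 member identifiers 0 matched the RefSeq gene table, and no genome was used, so the planned sequence description was not run and no list of other abscisic acid genes was made. The software was pandas 2.3.3, numpy 2.4.6, matplotlib 3.10.9 and scipy 1.17.1 under Python 3.11.15.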

Additional observations from a re-analysis of the deposited data

How the results depend on the processing

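Of 49 alternative values, 16 stayed within 1.5 times the count or inside the 95% Wilson interval of the share, 33 moved and 0 reversed. The interval served only as a limit for these labels. It depends on the number of peaks or genes ranked and measures no replicate error. Each group below gives the chromosome 19, 10 and 5 genes in that order unless a chromosome is named. The share of peaks scoring as high as the gene's best peak was 0.00813%, 1.23% and 1.19% over the list; it was 0.0242%, 0.955% and 1.49% within the same class, 0.0972%, 1.80% and 0.966% on the same chromosome, and 0.0407%, 5.94% and 1.63% in the same of 10 length groups. The share of genes was 0.0595%, 4.12% and 2.28% among genes with the same number of peaks, and by summed score 0.615% (chromosome 19) and 2.53% (chromosome 5). For the longest peak, 2.48%, 0.0122% and 2.67% of peaks were as long; within the class 1.66% (chromosome 19) and 2.91% (chromosome 5), and on the chromosome 1.65%, 0.0643% and 2.38%. Peaks per gene fell to 1 (chromosome 19) and 2 (chromosome 10) in the highest-scoring quartile, and to 1 (chromosomes 10 and 5) by annotation brackets alone. Promoter peaks numbered 1 (chromosome 10) and 2 (chromosome 5) by overlap with the window. From the nearest edge the best peak lay 0, 0 and -673 bp from the TSS. Centres numbered 1 within 5 kb (chromosome 10), and 6 (chromosome 10) and 8 (chromosome 5) within 20 kb. Listed genes with a peak over the TSS made up 68.9% among genes with 2 or more peaks and 48.0% with peaks at or above the median score. The length ranks and TSS cover were added after seeing the data. Fewer or different peaks compared account by construction for the changes in counts and windows; for the others the cause was not tested.

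No paired analysis was possible because the comparison has a single library on each side; for the same reason no replicate was left out. Depth is unknown, and what it limits was not measured.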

Other observations

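The genes next to the NCED genes in the list, named by position and not by function, each had a highest score below that of the NCED gene beside them. No more than 2.89% of listed genes scored as high as any NCED gene, so most listed genes would lie below them as well. Upstream of the chromosome 19 gene the nearest listed gene was VIT_19s0093g00540, on the minus strand with its TSS 21412 bp from the NCED TSS, so that the pair pointed away from each other. Its nearest peak lay 8302 bp from the outermost NCED peak and scored 12.3, while its other peak, in an intron (17598754 to 17600698), scored 85.7. Downstream, 82828 bp passed without a listed peak before the promoter peak of VIT_19s0093g00580, which scored 7.98. The larger of a gene's 2 flanking gaps was at least this long for 7.70% of 20087 listed genes with a neighbour on each side, at a median of 11735 bp. The larger gap was 25512 bp for the chromosome 10 gene and 43151 bp for the chromosome 5 gene, with shares of 27.3% and 16.7%.

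On chromosome 10 the nearest listed gene upstream, VIT_10s0003g03730, was also on the opposite strand, with its TSS 37866 bp away and a promoter peak scoring 28.8. A gap of 25512 bp separated that promoter peak from the NCED run. Downstream, VIT_10s0003g03760 lay on the minus strand, pointing towards the NCED gene, and its gene-end peak of 2476 bp scored 35.4. On chromosome 5 the nearest listed gene upstream, VIT_05s0051g00680, lay on the same minus strand with its TSS 12578 bp away, and its promoter peak scored 9.26. On the other side, 43151 bp without a peak preceded the promoter peak of VIT_05s0051g00660, which scored 37.6.

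The smaller of the 2 gaps to a peak of another gene was 8302 bp on chromosome 19, 9794 bp on chromosome 10 and 10082 bp on chromosome 5. Its median was 3067 bp over the same genes, and 24.9%, 21.5% and 20.9% of them had a gap at least as large. Genes without a peak are not in the list and were not counted in these stretches.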
